A study of Mus musculus with 19 samples.

Results

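Squamous cell carcinomas that arose in mice after BRAFV600E, the activated mutant form of the kinase BRAF, was switched on in involucrin-expressing keratinocytes were compared with normal skin. The comparison took every sample titled as an Ivl tumour (6) and every sample titled as normal skin (4), 10 of the 19 samples in the series, and was described across all 32031 genes tested. In the tumour group, genotype Ivl:BRAFV600E, a tamoxifen-inducible Cre recombinase under the involucrin promoter (Ivl-CreERT2) activated the oncogene after topical tamoxifen on shaved back skin. The skin group, genotype WT, came from wild-type littermates and so differed from the tumours in its alleles as well as in being untransformed. Tumours of genotypes K5:BRAFV600E (5) and K14:BRAFV600E (4), in which keratin 5 or keratin 14 promoters drove the Cre, were used as a second comparison. All 19 samples came from females, and the labels give an age range of 7 to 20 weeks. Each sample was fresh frozen bulk tissue sequenced as a strand-specific poly(A) library, so fewer cells of a type and less RNA per cell cannot be told apart. The labels give neither the body site of each tumour or skin sample nor whether tumours shared an animal, and p-values then measure the spread between these samples only.

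The epidermis is a layered tissue in which dividing basal keratinocytes, which make keratins 5 and 14, give rise to suprabasal cells that make keratins 1 and 10. Involucrin is made mostly by suprabasal cells, and by some basal cells already on the way to differentiation, and is part of the cornified envelope, a shell of involucrin, loricrin, small proline-rich and late cornified envelope proteins that transglutaminases cross-link below the cell membrane. BRAF sits between RAS and MEK in the MAPK cascade, and the V600E change keeps it active without input from RAS. In wounds and psoriatic skin, keratinocytes are known to switch to keratins 6, 16 and 17 and to make S100 alarmins and neutrophil chemokines.

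Deposited totals ran from 45715309 to 72609771 counts per library. Levels are given as CPM, counts scaled to a common library size with TMM factors, and a gene was called raised or lowered at an adjusted p under 0.05 in the edgeR test over all 19 libraries. Ivl tumours 1 to 3 stood apart from tumours 4 to 6, and results are given with and without them. Fits of tumours 4 to 6 alone also left out K5 tumour 1 and so used 15 libraries. Averaged with K5 tumour 1, they came within 0.1 (log2) of the average of the remaining 15 libraries for 96.6% of 13954 genes over 2 CPM, against 13.9% for a set of Ivl tumours 4 to 6 and K5 tumour 2. The study describes a batch adjustment over 2 sequencing batches without naming the libraries in each. The batch sizes it gives equal those of this set of 4 and of the remaining 15, but which libraries each batch held cannot be told from the labels, and the part of that step in these values was not tested. The median SD of log2 CPM over protein-coding genes was 0.39 in the 6 tumours, 0.16 in tumours 4 to 6 and 0.29 in skin. Skin also held more RNA without poly(A) tails: Rn7sk, a small nuclear RNA that lacks a tail, was at 2279 to 3275 CPM of the library total in skin, 1283 and 934 CPM in tumours 2 and 3, and 2.12 to 13.3 CPM in the other 4 tumours. Protein-coding genes are therefore given first. Braf itself had 42.99 to 84.1 CPM in the tumours (median 45.1) and 122, 57.7, 66.9 and 59.8 CPM in skin samples 1 to 4. The log2 fold change of -0.51 ± 0.22 (SE) did not pass the test with all 6 tumours (adjusted p = 0.078) and did with tumours 4 to 6 (-0.82, adjusted p = 0.0041), and the counts do not tell the mutant allele from the normal one.

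Of 17977 protein-coding genes tested, 5383 (29.9%) were raised and 1649 (9.17%) lowered in the Ivl tumours. Tumours 4 to 6 alone gave 5850 raised (32.6%) and 4816 lowered (26.8%) of 17963, so the lowered side grew while the raised side held. Leaving out 1 Ivl or skin library gave 4828 to 5680 raised and 732 to 3318 lowered, the fewest lowered without tumour 5 (732), tumour 4 (747) or tumour 6 (768) and the most without tumour 3 (3318) or tumour 2 (2649). Leaving out skin 2, 3 or 4 gave 872 to 991 lowered. Of the genes raised with all 6 tumours, 99.4% were also raised with tumours 4 to 6, and 93.5% of those lowered were also lowered. In the other direction, 32.0% of the genes lowered in tumours 4 to 6 were also lowered with all 6, and no gene was raised in one and lowered in the other. The 2 fits share tumours 4 to 6 and the skin libraries, so agreement between them is partly built in. Of the 3512 genes lowered at least 2-fold in tumours 4 to 6, tumours 2 and 3 lay above all of tumours 4 to 6 in 80.4% and 81.0%, and tumour 1 in 24.3%. The choice of genes low in tumours 4 to 6 by itself favours higher values in the tumours left out. Among the 14357 genes at 1 CPM or more in a group mean, 5126 were raised and 1258 lowered, and among the 3620 lower genes 257 and 391. All 6 tumours lay above all 4 skin samples for 3696 protein-coding genes (20.6%) and below them for 597 (3.32%).

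The balance of raised and lowered genes depended on scaling. TMM put the median log2 fold change of all genes at -0.46 and that of protein-coding genes at -0.0066, and raised genes made up 76.6% of protein-coding calls. DESeq2 size factors gave 4676 raised and 2845 lowered (62.2% raised), and TMM computed from protein-coding genes 4334 and 3485 (55.4%), with medians of all genes at -0.59 and -0.65. Changes below are relative to the TMM scale.

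**Figure D1:**
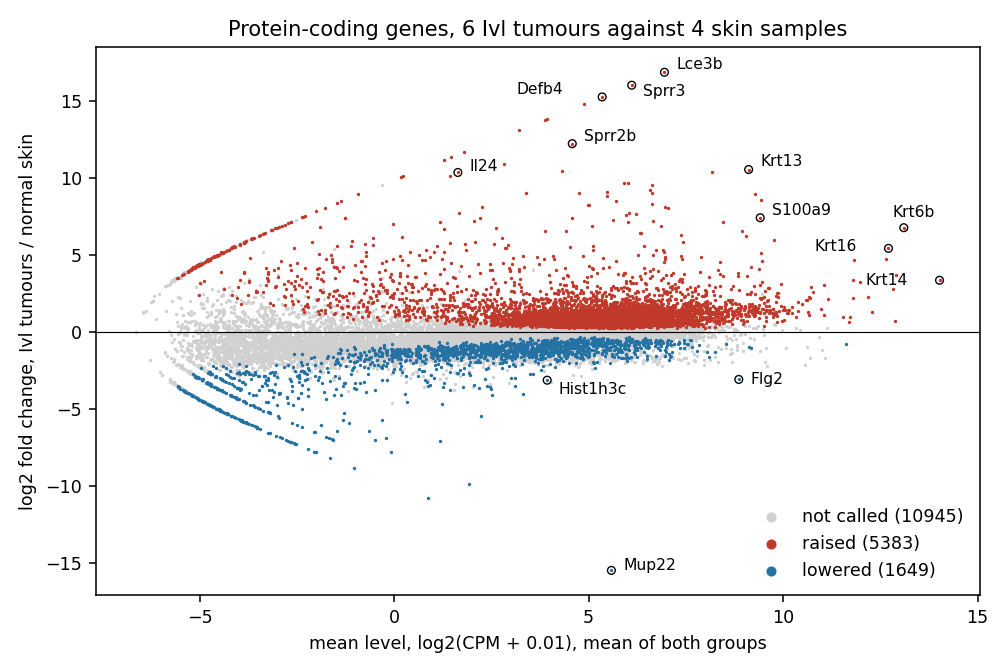
Log2 fold change of each protein-coding gene (Ivl tumours over normal skin, vertical axis) against its mean level as log2(CPM + 0.01) (horizontal axis), with 5383 raised genes in red, 1649 lowered in blue and the rest grey. Keratin and cornified envelope genes form the upper right and Mup22 stands at the bottom.

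The 41 gene lists, chosen with earlier results of these data known, spread widely in their medians. Cornified envelope, wound keratin, neutrophil and interleukin-1 lists stood highest, growth and metabolic lists had median log2 fold changes of 0.93 to 1.85, the MAPK, Notch, circadian and Wnt lists lay at -0.33 to 0.17, and lists of muscle, fat, pigment and nerve, HOX and hair keratin genes lay lowest.

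**Figure D2:**
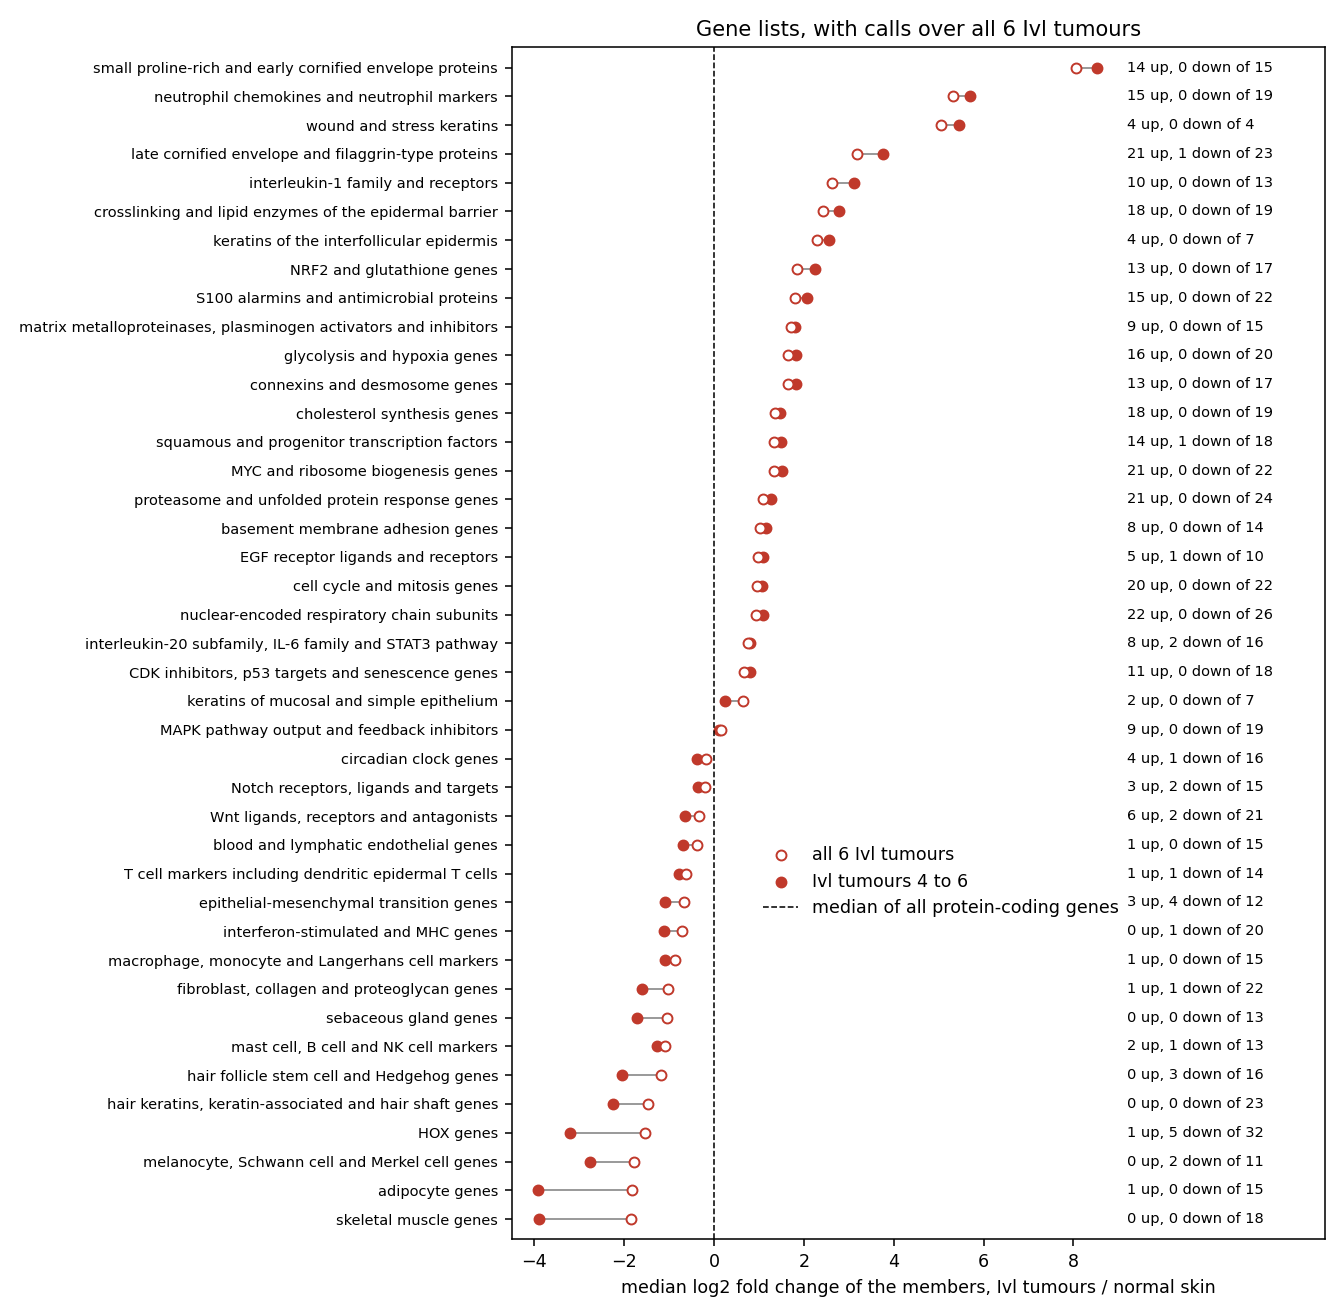
Median log2 fold change (Ivl tumours over normal skin) of each gene list, with all 6 tumours (open circles) and with tumours 4 to 6 alone (filled circles), and the counts raised and lowered at right. Medians run from 8.05 for small proline-rich proteins to -1.85 for skeletal muscle genes with all 6 tumours, and the dashed line is the median of all protein-coding genes.

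Keratins of the basal and first suprabasal layers rose together in the tumours, and the wound keratins rose more. Krt14, the basal type I keratin (chr11:100203162-100207548, minus strand, GRCm38), was at 5639 to 45642 CPM in the 6 tumours (median 32265) and at 1888, 3681, 2453 and 3881 CPM in skin samples 1 to 4. The groups did not overlap, with tumour 1 lowest of the tumours, and the log2 fold change was 3.34 ± 0.44 (adjusted p = 3.0e-05). Its partner Krt5 rose by 2.29 ± 0.30 (adjusted p = 3.0e-05). The suprabasal keratins Krt1 and Krt10 rose by 3.72 ± 0.62 and 2.81 ± 0.59 (adjusted p = 1.6e-04 and 0.0013). Krt10 had 3163 to 22188 CPM in the tumours and 1006, 2406, 2324 and 1474 CPM in skin, so the lowest tumour, number 3, was still above the highest skin sample. Of the 7 keratins of the interfollicular epidermis, 4 were raised and none lowered, with Krt15 at -1.27, Krt2 at -0.63 and Krt77 at -1.82 not called. Tumours 4 to 6 alone gave 4 raised and 2 lowered.

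All 4 wound and stress keratins were raised, with a median log2 fold change of 5.06, and the same 4 of 4 were raised with tumours 4 to 6. Krt6b was at 895 to 30495 CPM in the tumours (median 19948) against 123, 137, 119 and 265 CPM in skin. Tumours 4 to 6 lay between 26810.0 and 30495 CPM and tumour 3 lowest, and the log2 fold change was 6.76 ± 0.83 (adjusted p = 3.0e-05). Krt16 rose by 5.42 ± 0.70, Krt6a by 4.702 ± 0.60 and Krt17 by 3.01 (adjusted p = 3.0e-05, 3.0e-05 and 2.8e-04). Krt6a and Krt6b are near-identical neighbours, so the split of reads between them is uncertain. Per kilobase of exon, Krt14, Krt16 and Krt6b were the 3 most abundant protein-coding genes in the tumours at 17199.7, 8352 and 7792 CPM per kb, where mt-Co1, a mitochondrial gene, led in skin at 3743 CPM per kb.

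Krt13 and Krt4, the keratin pair of oral and oesophageal epithelium, were also raised. Krt13 (chr11:100117327-100121566, minus strand) was at 985, 252, 79.9, 2446, 2592 and 281 CPM in tumours 1 to 6 and at 0.857, 0.641, 0.431 and 1.06 CPM in skin. Every tumour was far above every skin sample, although the tumours themselves spanned over 10-fold, and the log2 fold change was 10.53 ± 1.52 (adjusted p = 6.0e-05). Krt4 was at 17.5, 9.62, 4.15, 6.95, 81.97 and 30.3 CPM in the tumours and 0.396, 0.517, 1.75 and 2.14 CPM in skin, a log2 fold change of 4.38 ± 1.02 (adjusted p = 0.0031). The other 5 of the 7 mucosal and simple-epithelium keratins did not pass the test with all 6 tumours, and 3 of them were lowered with tumours 4 to 6: Krt8 (-2.65, adjusted p = 0.044), Krt19 (-2.12, adjusted p = 0.010) and Krt20 (-3.73, adjusted p = 0.025). Krt8, a keratin of simple epithelia, was at or below 2.25 CPM in every tumour, and Krt7, Krt18, Krt19 and Krt20 had log2 fold changes of 0.70, 0.64, -1.33 and -1.62. Over the type II keratin cluster on chromosome 15, 8 of 29 protein-coding genes (27.6%) were raised and none lowered, and over the type I cluster on chromosome 11, 6 of 65 (9.23%) were raised and 1 lowered. These shares were near and below the 29.9% raised among all protein-coding genes, and tumours 4 to 6 gave 3 lowered in each cluster.

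**Figure D3:**
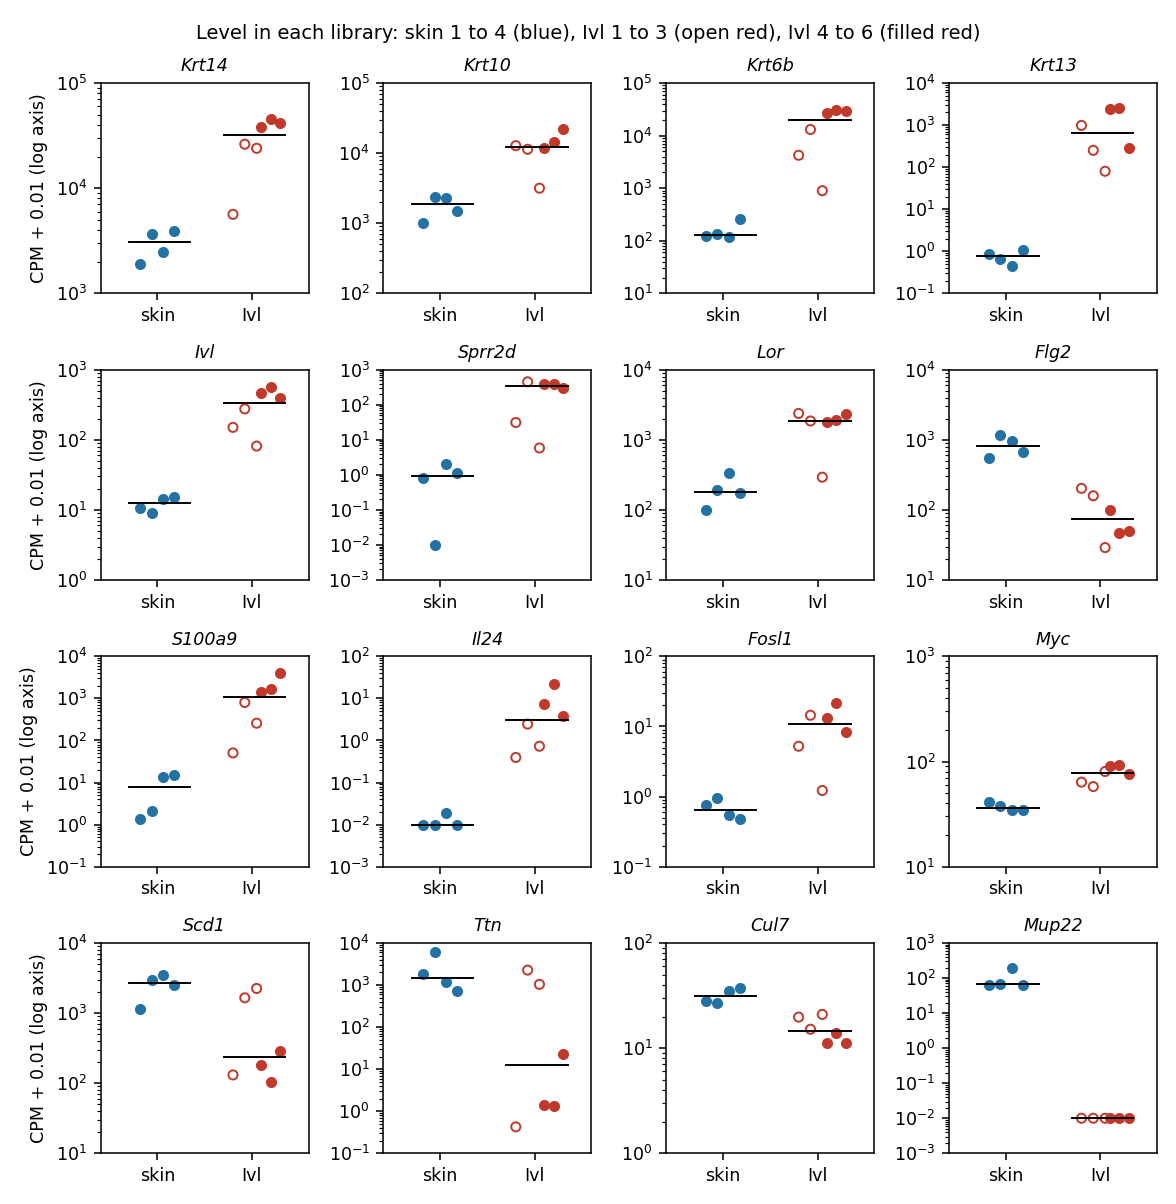
Level of 16 genes in each library as CPM + 0.01 on log axes, for normal skin (blue) and Ivl tumours (red; tumours 1 to 3 open, 4 to 6 filled), with bars at the group medians. Keratin, cornified envelope and S100a9 values separate the groups, except that Lor in tumour 3 lies within the skin range. Scd1 and Ttn, of sebaceous gland and muscle, are at skin levels in tumours 2 and 3 only.

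The epidermal differentiation complex, a stretch of chromosome 3 from S100a1 to S100a10 (90511034 to 93564643, GRCm38), encodes most cornified envelope proteins. Of its 74 protein-coding genes tested, 55 (74.3%) were raised, 1 was lowered and 18 were not called, with a median log2 fold change of 2.75. Tumours 4 to 6 alone gave 55 raised and 3 lowered and a median of 3.25. Small proline-rich proteins, which are short cross-bridges of the envelope made early in differentiation and in stressed skin, formed the list with the highest median. In that list 14 of 15 members were raised, with a median of 8.05, and Sprr4 was not called (-2.12).

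Ivl, whose promoter drove the Cre in these mice, was at 81.4 to 569 CPM in the tumours (median 337) and 10.5, 8.95, 14.5 and 15.1 CPM in skin. The groups did not overlap, and the log2 fold change was 4.72 ± 0.51 (adjusted p = 3.0e-05). Sprr2d was at 31.2, 452, 5.83, 401, 389 and 302 CPM in tumours 1 to 6 and 0.791, 0, 2.05 and 1.09 CPM in skin, with tumours 1 and 3 well below the other 4, and rose by 8.05 ± 1.36 (adjusted p = 2.2e-04). Sprr3 had no reads in any skin library and 171, 9.01, 3.001, 258, 281 and 104 CPM in the tumours, so its mean was at least 4219-fold higher than 3 counts in each skin library allow. Sprr2b, at 3 counts or fewer in every skin library, was at least 1461-fold higher. Sprr1b rose by 5.97 ± 0.82 (adjusted p = 3.7e-05). Reads can be shared between the Sprr2 genes, which are close copies, so the split among them is uncertain.

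Late cornified envelope and filaggrin-type genes rose in 21 of 23 cases, with a median log2 fold change of 3.18 and with Lce1m not called (-1.15). The Lce3 genes, known for their induction in damaged skin, rose by 6.27 (Lce3c) to 9.18 (Lce3e) in the 5 members with reads in skin, and Lce3b, with no reads in skin, was at least 7559-fold higher. Tumour 3 held 0.352 CPM of Lce3b where the other tumours held 66.1 to 471. Lor, the main protein of the mature envelope, was at 2377, 1857, 293, 1800.4, 1897 and 2299 CPM in tumours 1 to 6 and 99.7, 194, 339.5 and 171 CPM in skin. Tumour 3 lay below skin sample 3, the only overlap, and the log2 fold change was 3.124 ± 0.50 (adjusted p = 1.1e-04). Flg, the precursor of filaggrin, rose by 2.66 ± 0.46 and its relative Rptn by 4.68 (adjusted p = 2.2e-04 and 1.3e-04). Flg2, a second filaggrin-type gene next to Flg, went the other way. It was at 203, 159, 28.97, 98.6, 46.9 and 49.8 CPM in tumours 1 to 6 and 545, 1162, 957 and 659 CPM in skin, without overlap, a log2 fold change of -3.09 ± 0.76 (adjusted p = 0.0050).

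**Figure D4:**
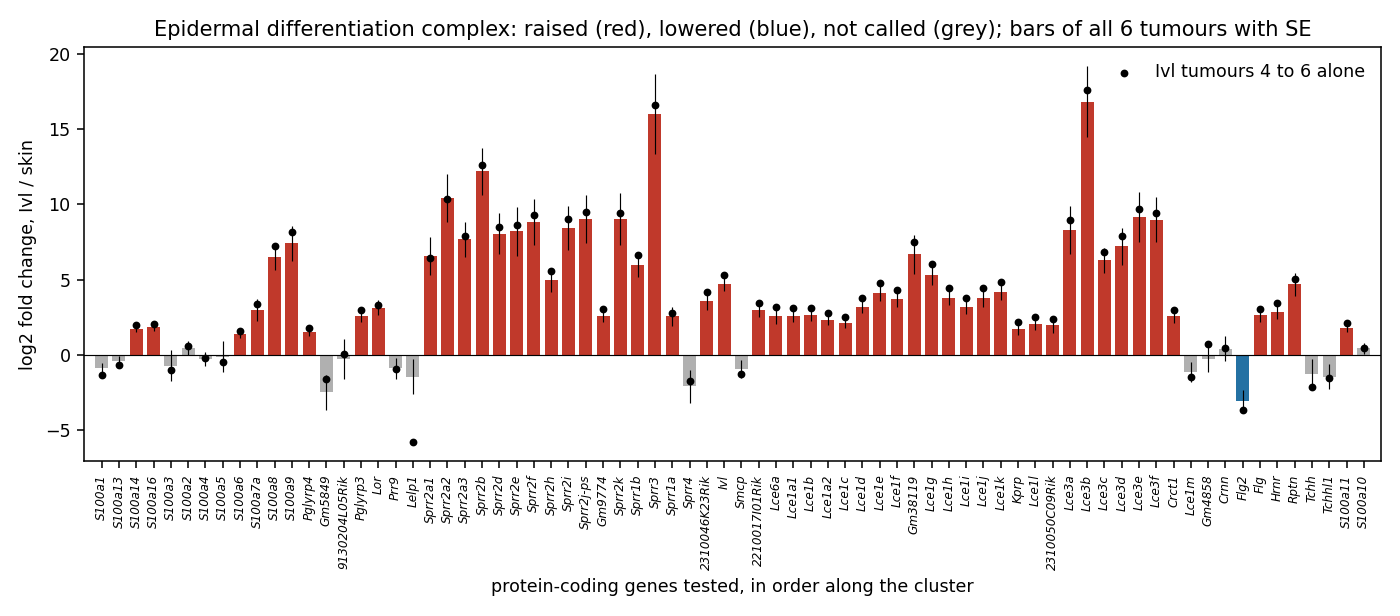
Log2 fold change (Ivl tumours over normal skin) of the protein-coding genes tested in the epidermal differentiation complex, in chromosomal order, as bars with their SE and coloured by call, with the values of tumours 4 to 6 alone as dots. The Sprr and Lce3 genes reach the highest values, Flg2 is the one lowered gene, and fitted values of genes without skin reads (Sprr3, Lce3b) depend on the prior count.

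Promoters of 4 strongly raised genes are shown because they share the letters TGANTCA, where N is any base. These letters include TGAGTCA and TGACTCA, the core bound by AP-1 factors such as FOS and JUN, which lie downstream of the MAPK cascade. The Krt13 and Flg2 windows hold TGAATCA, which is not that core. The promoter of the lowered Flg2 is set beside them since it holds the letters too. Each run is the RefSeq window of GRCm38.p6 from 250 bases before to 50 bases after the start site, 5′ to 3′ on the gene's strand, with the match in capitals. The windows are chr3:92316455-92316754 (Sprr2b, plus strand), chr3:92338890-92339189 (Sprr2d, plus), chr11:100121517-100121816 (Krt13, minus), chr5:76363728-76364027 (Nmu, minus) and chr3:93197023-93197322 (Flg2, plus).
Sprr2b: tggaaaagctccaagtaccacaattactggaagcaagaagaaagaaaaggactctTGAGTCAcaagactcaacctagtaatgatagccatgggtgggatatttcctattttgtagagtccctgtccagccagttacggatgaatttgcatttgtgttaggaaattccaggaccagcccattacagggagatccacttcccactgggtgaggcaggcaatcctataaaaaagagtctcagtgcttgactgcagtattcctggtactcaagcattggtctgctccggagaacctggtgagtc
Sprr2d: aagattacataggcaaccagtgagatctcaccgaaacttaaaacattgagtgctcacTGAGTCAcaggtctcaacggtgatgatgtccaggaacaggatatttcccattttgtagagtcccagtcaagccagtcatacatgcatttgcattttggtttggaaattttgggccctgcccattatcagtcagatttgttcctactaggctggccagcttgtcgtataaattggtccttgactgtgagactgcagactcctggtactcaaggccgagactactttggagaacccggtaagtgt
Krt13: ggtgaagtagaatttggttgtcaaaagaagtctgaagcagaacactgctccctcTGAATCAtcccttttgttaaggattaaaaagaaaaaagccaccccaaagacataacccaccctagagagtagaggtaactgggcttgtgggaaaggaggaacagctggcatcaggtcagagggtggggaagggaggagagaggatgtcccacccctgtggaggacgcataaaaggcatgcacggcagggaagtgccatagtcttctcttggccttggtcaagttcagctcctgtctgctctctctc
Nmu: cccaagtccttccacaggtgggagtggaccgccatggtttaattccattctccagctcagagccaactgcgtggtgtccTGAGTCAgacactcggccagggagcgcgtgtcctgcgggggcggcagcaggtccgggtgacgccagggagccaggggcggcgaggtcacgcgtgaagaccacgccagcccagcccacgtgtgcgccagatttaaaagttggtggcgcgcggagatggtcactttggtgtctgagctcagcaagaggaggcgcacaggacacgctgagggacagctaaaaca
Flg2: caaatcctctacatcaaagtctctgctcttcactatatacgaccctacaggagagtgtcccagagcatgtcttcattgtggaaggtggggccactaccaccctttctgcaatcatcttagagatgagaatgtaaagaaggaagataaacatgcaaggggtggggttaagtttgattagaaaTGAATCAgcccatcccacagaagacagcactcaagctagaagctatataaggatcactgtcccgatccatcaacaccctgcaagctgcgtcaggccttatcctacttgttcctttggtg
The match lay 195, 193, 196 and 171 bases before the start in the raised genes and 69 bases before it in Flg2. The Sprr2b and Sprr2d windows share the form TGAGTCA at nearly the same place. Over all 32851 RefSeq promoters of this window, 7.81% held TGANTCA, which reads the same on both strands. Among promoters of protein-coding genes tested the share was 6.33%, with 6.62% for raised genes, 6.67% for lowered genes and 6.14% for genes not called. Of the 340 promoters of genes raised by more than 3 on the log2 scale, 16.2% held it, and of the 225 of genes lowered by more than 3, 9.78%. The E-box letters CACGTG, read by MYC among others, were in 10.04% of raised and 4.71% of the most raised promoters, against 8.72% of those tested. The TGANTCA shares count any middle base, so they are not shares of the AP-1 core alone. These shares describe letters in the windows and were not tested.

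Enzymes that assemble the barrier followed the envelope genes. Of 19 crosslinking, lipid and protease genes, 18 were raised and none lowered (median log2 fold change 2.43). Tgm1, the main envelope transglutaminase, had 251 to 586 CPM in the tumours (median 453) and 81.9, 63.4, 86.5 and 72.00 CPM in skin, a log2 fold change of 2.55 ± 0.32 (adjusted p = 3.0e-05). Tgm3 rose by 4.57 and the lipoxygenase Alox12b by 2.88 (adjusted p = 8.9e-05 and 4.4e-05). Abca12, a lipid transporter of lamellar granules, rose by 1.84 ± 0.33 (adjusted p = 2.8e-04), with tumour 3 (261 CPM) just below skin sample 2 (264 CPM). Kallikreins, the proteases that free cells at the surface, rose by 2.17 (Klk5) to 7.62 (Klk14), with Klk6 at 4.03 ± 0.70 (adjusted p = 2.4e-04).

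Junction and adhesion genes moved with them, though less. Among 17 connexin and desmosome genes, 13 were raised and none lowered (median 1.64). Dsc2, a desmosomal cadherin, was at 329 to 1054 CPM in the tumours and 55.8, 35.8, 34.6 and 61.6 CPM in skin and rose by 3.73 ± 0.70 (adjusted p = 5.1e-04). Dsg3 rose by 2.23 ± 0.33, and the connexins Gjb6 and Gjb2 by 3.24 ± 0.50 and 2.54 ± 0.62 (adjusted p = 5.5e-05, 7.4e-05 and 0.0041). Gjb2 was at 576 CPM in skin sample 1, above tumour 1 (409.7). Of 14 basement membrane adhesion genes, 8 were raised and none lowered (median 1.03). Itgb4 of the hemidesmosome rose by 1.01 ± 0.24 (adjusted p = 0.0028), while the fibronectin receptor subunit Itga5 was not called (0.77 ± 0.30, adjusted p = 0.055). With tumours 4 to 6 alone 1 gene of each list was lowered.

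Downstream of BRAF, 9 of 19 MAPK output genes were raised and none lowered, and their median of 0.17 (-0.03 with TMM from protein-coding genes) was close to that of all protein-coding genes. Fosl1, an AP-1 subunit and a standard readout of ERK activity, was at 5.21, 14.4, 1.21, 13.1, 21.5 and 8.42 CPM in tumours 1 to 6 and 0.738, 0.933, 0.543 and 0.468 CPM in skin. All tumours were above skin, with tumour 3 closest, and the log2 fold change was 3.99 ± 0.60 (adjusted p = 6.7e-05). Most of its exon sequence overlaps another gene (57.2% of bases), so its count is uncertain. Phlda1, Ier3 and Dusp5 rose by 2.47, 2.09 and 2.08 (adjusted p = 5.4e-04, 3.0e-05 and 5.9e-05), and the ETS factor Etv4 by 1.15 ± 0.30 (adjusted p = 0.0058, and 0.05001 in a fit of the 10 libraries alone). Dusp6, the ERK phosphatase, was raised by 0.77 ± 0.29 at adjusted p = 0.048. That call was lost without any one of tumours 1, 4 or 5 or any skin library, at adjusted p = 0.0555 to 0.155, and with tumours 4 to 6 alone (0.055). It was also lost with either other scaling, DESeq2, other gene filters and a fit of the 10 libraries alone (adjusted p = 0.0511 to 0.108). Among the feedback inhibitors Spred3 was raised (1.94 ± 0.48, adjusted p = 0.0049). Spry2, Spry4, Spred1 and the ETS factor Etv5 had log2 fold changes of 0.15, -1.101, -0.26 and -0.28 and were not called. Tumours 4 to 6 alone gave 8 raised and 3 lowered.

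EGF receptor ligands split by member. Areg was at 7.45, 39.2, 21.5, 40.7, 104 and 32.6 CPM in tumours 1 to 6 and 4.38, 1.58, 4.98 and 2.35 CPM in skin and rose by 3.62 ± 0.67 (adjusted p = 4.5e-04), with tumour 1 lowest. Hbegf was at 43.4 to 254 CPM in the tumours and 14.6, 13.3, 14.2 and 17.1 CPM in skin, without overlap, and rose by 3.19 ± 0.44 (adjusted p = 3.5e-05). Epgn, Ereg and Tgfa rose by 3.82, 2.84 and 1.87 (adjusted p = 7.1e-04, 9.8e-04 and 6.8e-04), and Btc fell by 1.06 on the log2 scale (adjusted p = 0.047). The call of Btc was lost with tumours 4 to 6 (adjusted p = 0.055) and without any one of tumours 3, 5 or 6 or skin 2, 3 or 4. Egf was not called with all 6 tumours (-1.12 ± 0.51, adjusted p = 0.093) and was lowered with tumours 4 to 6 (-2.01, adjusted p = 0.0025). The receptor Egfr, at 109 to 224 CPM in the tumours and 211, 188, 184 and 185 CPM in skin, was not called with all 6 tumours (-0.38 ± 0.17, adjusted p = 0.088) and was lowered with tumours 4 to 6 (-0.66, adjusted p = 7.9e-04). Of the 10 ligands and receptors 5 were raised and 1 lowered (5 and 2 with tumours 4 to 6).

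Of 22 alarmin and antimicrobial genes, which stressed keratinocytes make, 15 were raised and none lowered (median 1.80, and 15 raised and 1 lowered with tumours 4 to 6). S100a8 and S100a9, the 2 chains of calprotectin, rose by 6.52 ± 0.85 and 7.402 ± 1.19 (adjusted p = 3.3e-05 and 1.3e-04). S100a9 was at 50.5, 802, 258, 1411, 1646 and 3947 CPM in tumours 1 to 6 and 1.36, 2.05, 13.4 and 15.2 CPM in skin, with tumour 1 far below the others and tumour 6 highest. Slpi, a secreted protease inhibitor, was at 2993, 235, 45.8, 1639, 1492 and 980.1 CPM in the tumours and 1.503, 0.528, 4.18 and 3.83 CPM in skin and rose by 8.93 ± 1.28 (adjusted p = 5.3e-05). The beta-defensins Defb4 and Defb3 had no reads in skin and were at least 2490.5-fold and 901-fold higher in the tumours, whose Defb3 levels were 10.7, 6.37, 20.3, 37.8, 22.9 and 78.5 CPM. Camp and Lyz2, made mainly by myeloid cells, were not called (-1.48 and -1.03).

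Interleukin-1 family genes rose in 10 of 13 cases and none fell (median 2.63). With tumours 4 to 6, 10 were raised and 1, the receptor Il1r1, was lowered (-0.88, adjusted p = 6.6e-05). Il1f6, an IL-36 cytokine of the epidermis, was at 248, 94.99, 11.4, 248, 269.9 and 555 CPM in tumours 1 to 6 and 6.53, 10.1, 4.43 and 5.54 CPM in skin and rose by 5.16 ± 0.75 (adjusted p = 5.6e-05). Il1b rose by 4.03 ± 0.90 and its antagonist Il1rn by 2.596 ± 0.38 (adjusted p = 0.0023 and 5.4e-05). Il1a and Il33, which epidermal cells release on damage, rose by 3.26 and 2.87 (adjusted p = 3.6e-05 and 0.0013). Of 16 genes of the interleukin-20 subfamily and the IL-6 to STAT3 route, 8 were raised and 2 lowered (8 and 4 with tumours 4 to 6, and 0 to 3 lowered when any 1 library was left out). Il24, at 3 counts or fewer in every skin library and 0.384, 2.45, 0.7197, 7.48, 22.3 and 3.83 CPM in the tumours, was at least 189.6-fold higher. Socs3, the feedback inhibitor of STAT3, rose by 1.52 ± 0.38 (adjusted p = 0.0048). Il6 stayed below 2 CPM in every tumour and skin library and rose by 1.91 ± 0.61 (adjusted p = 0.021, and 0.0507 and 0.0503 without skin 1 or skin 3). The receptor subunits Il6st and Lifr fell by 0.80 and 1.66 on the log2 scale (adjusted p = 0.035 and 0.047), and Osmr was not called (-0.35 ± 0.23, adjusted p = 0.23).

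Neutrophil chemokines and markers rose in 15 of 19 cases, with a median log2 fold change of 5.32, and none fell. Cxcr2, the chemokine receptor of neutrophils, was at 4.04, 4.78, 22.3, 28.3, 25.4 and 20.2 CPM in tumours 1 to 6 and 1.45, 0.382, 0.956 and 1.38 CPM in skin and rose by 4.07 ± 0.54 (adjusted p = 3.3e-05). The chemokine Cxcl2 rose by 5.42 ± 1.17 (adjusted p = 0.0018), although tumour 1 (0.369 CPM) lay below skin sample 3 (0.656). Cxcl5, Stfa1 and Stfa2 rose by 10.11, 9.499 and 9.64 (adjusted p = 5.9e-04, 3.0e-05 and 7.0e-05), the stefin A genes being close copies. Csf3r, the G-CSF receptor, was not called (1.29 ± 0.90, adjusted p = 0.24). The summed level of Csf3r, Cxcr2 and Ly6g was 6.01 to 39.2 CPM in the tumours and 0.753 to 13.0 CPM in skin.

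Few genes of other immune cells were called. Over all protein-coding genes 29.9% were raised and 9.17% lowered, and 32.6% and 26.8% with tumours 4 to 6. Of 15 macrophage, monocyte and Langerhans cell genes 1 was raised and none lowered, and the list median was -0.86. Adgre1, Mrc1 and Cd207 had log2 fold changes of -1.12 ± 0.59, -1.21 ± 0.68 and -0.54 ± 0.57. Of 14 T cell genes 1 was raised (Trbc2, 2.28) and 1 lowered (Ctsw, -1.42). None was lowered without any one of tumours 4, 5 or 6 or skin 2, 3 or 4, and 3 were without tumour 2. Cd3e was at 0.184 to 2.82 CPM in the tumours and 0.963, 3.07, 4.08 and 4.71 CPM in skin (-1.28 ± 0.58, adjusted p = 0.088). Trdc, the constant region of the delta chain, and Foxp3 of regulatory T cells were not called (-0.59 and -0.95). Of 13 mast cell, B cell and NK cell genes 2 were raised and 1 lowered (Ncr1), with 1 to 3 lowered when 1 library was left out, the 3 without tumour 3 or skin 2. Cpa3 differed among the skin samples themselves, at 0.593, 0.214, 35.5 and 40.2 CPM, and was at 3.49 to 10.9 CPM in the tumours. Interferon-stimulated and MHC genes gave none raised and 1 lowered of 20 (median -0.71, and 1 raised and 5 lowered with tumours 4 to 6). These lowered shares were near or below those of all protein-coding genes. Leaving out 1 library gave 0 to 4 lowered, the 4 without tumour 2 or 3. Among them Isg15, Cxcl10 and H2-Aa had log2 fold changes of 0.18, -1.21 and -0.89 and were not called.

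Several proteases that remodel matrix rose, while Col1a1, the main collagen, was not called with all 6 tumours. Of 15 metalloproteinase, plasminogen activator and inhibitor genes, 9 were raised and none lowered (median 1.70, and 8 raised and 1 lowered with tumours 4 to 6). Mmp13, a collagenase, was at 1.91, 60.5, 78.1, 136, 95.1 and 35.99 CPM in tumours 1 to 6 and 0.396, 0.191, 2.12 and 2.99 CPM in skin, with tumour 1 inside the skin range, and rose by 5.56 ± 1.15 (adjusted p = 0.0013). Mmp10 rose by 6.73 ± 1.26 and Timp1 by 2.14 ± 0.56 (adjusted p = 5.7e-04 and 0.0070), and Mmp3 was not called (1.704 ± 0.91). Of 22 fibroblast genes, 1 was raised and 1 lowered, and 6 were lowered with tumours 4 to 6, near the share of all protein-coding genes (26.8%). Leaving out 1 library moved the lowered count between 0 and 8, the 8 without tumour 3. Col1a1 was at 488, 1182, 3211, 363, 455 and 395 CPM in tumours 1 to 6 and 1513, 299, 5036 and 6209.9 CPM in skin. Skin sample 2 lay below every tumour and the other skin samples above tumours 1, 2 and 4 to 6, and the log2 fold change of -1.68 ± 0.71 was not called (adjusted p = 0.072), against -3.01 with tumours 4 to 6 (adjusted p = 0.0067). Tnc, a matrix protein of healing wounds, was the raised gene (2.398 ± 0.54, adjusted p = 0.0024). Of 12 epithelial-mesenchymal transition genes 3 were raised and 4 lowered, against 29.9% and 9.17% of all protein-coding genes. The raised share was near that of all protein-coding genes. Those raised were the epithelial genes Cdh1 (0.90) and Esrp1 (0.82) and the transcription factor Snai2 (1.27). The 4 lowered were Zeb1, Zeb2, Prrx1 and Cdh2. Zeb1 fell by 1.21 on the log2 scale (adjusted p = 0.016, and 0.0503 without skin 4), and 1 to 5 of these genes were lowered when single libraries were left out, the 1 without skin 4.

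Growth genes rose broadly, by less than the cornified envelope genes. Of 22 MYC and ribosome biogenesis genes 21 were raised (median 1.33). Myc was at 63.7, 57.7, 80.3, 89.8, 93.6 and 75.8 CPM in tumours 1 to 6 and 41.03, 37.7, 34.4 and 34.7 CPM in skin, without overlap, and rose by 1.06 ± 0.16 (adjusted p = 7.0e-05). Ncl, Nop56 and Odc1, genes of nucleolus and polyamine synthesis, rose by 1.34, 1.33 and 1.69 (adjusted p = 1.9e-04, 1.9e-04 and 0.012). Of 22 cell cycle genes 20 were raised and none lowered (median 0.96), and 13 in a fit of the 10 libraries alone. Mki67, the usual marker of cycling cells, was at 304 to 433 CPM in the tumours and 529.8, 252, 321 and 134 CPM in skin and was not called (0.29 ± 0.25, adjusted p = 0.35). Ccnb1, Mcm5 and Pcna rose by 1.21 ± 0.27, 1.41 ± 0.26 and 0.88 ± 0.13. Inhibitors rose beside them, with 11 of 18 CDK inhibitor, p53 and senescence genes raised and none lowered (11 and 3 with tumours 4 to 6). Cdkn2a, which encodes p16 and p19ARF in mice, was at 1.01, 3.48, 17.2, 21.6, 29.5 and 6.28 CPM in tumours 1 to 6 and 0.738, 0, 0.647 and 0.956 CPM in skin and rose by 4.49 ± 0.97 (adjusted p = 0.0017). Cdkn1a rose by 1.18 ± 0.15, Cdkn2b by 1.24 ± 0.24 and Mdm2 by 0.62 ± 0.13.

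Metabolic lists moved the same way. Glycolysis and hypoxia genes were raised in 16 of 20 cases (median 1.64), proteasome and unfolded protein response genes in 21 of 24 (1.09), nuclear-encoded respiratory chain subunits in 22 of 26 (0.93) and cholesterol synthesis genes in 18 of 19 (1.35), with none lowered. With tumours 4 to 6, 1 gene was lowered in each of the respiratory and cholesterol lists. Slc2a1, the glucose transporter GLUT1, was at 239, 189, 203, 391, 479 and 283 CPM in tumours 1 to 6 and 40.8, 70.3, 61.8 and 62.1 CPM in skin and rose by 2.34 ± 0.29 (adjusted p = 3.0e-05). Ldha rose by 1.702 ± 0.19, Hk2 by 1.38 ± 0.28 and Hif1a by 1.88 ± 0.25. Psmb5 of the proteasome and the chaperone Hspa5 rose by 1.57 ± 0.20 and 1.27 ± 0.20. The 3 subunits with negative values in the respiratory list, Cox6a2, Cox7a1 and Cox8b, are the forms made in muscle, and Cox7a1 was at 0.184 to 8.11 CPM in the tumours and 7.03, 12.6, 6.62 and 5.15 CPM in skin. The sterol enzyme Sqle rose by 1.62 ± 0.22. Of 17 NRF2 and glutathione genes 13 were raised and none lowered (median 1.85). Nqo1, a standard NRF2 target, was at 91.2, 28.98, 51.1, 116, 103 and 78.6 CPM in tumours 1 to 6 and 9.86, 17.1, 13.8 and 16.5 CPM in skin and rose by 2.45 ± 0.35 (adjusted p = 4.2e-05). Slc7a11, the cystine importer, rose by 3.51 ± 0.70 (adjusted p = 9.4e-04), while Txnrd1 was not called (0.10 ± 0.18).

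Transcription factors of squamous epithelium rose in 14 of 18 cases and 1 fell (median 1.34). Pitx1, a homeobox factor, was at 218, 27.1, 40.9, 295, 255 and 104 CPM in tumours 1 to 6 and 1.24, 3.06, 1.89 and 1.05 CPM in skin. The lowest tumour was far above the highest skin sample, and the log2 fold change was 6.43 ± 0.86 (adjusted p = 3.6e-05). Sox2, a progenitor factor, was at 15.02, 2.84, 2.86, 31.2, 32.05 and 4.49 CPM in the tumours and 1.48, 1.43, 1.71 and 0.732 CPM in skin. Tumours 1, 4 and 5 were high and tumours 2, 3 and 6 close above skin, and the log2 fold change was 3.46 ± 0.81 (adjusted p = 0.0031). Elf3, Hopx and Klf4 rose by 3.45, 2.91 and 1.79 (adjusted p = 1.3e-04, 4.5e-05 and 5.5e-05), and Trp63, the lineage factor of all squamous cells, was not called (0.41 ± 0.18, adjusted p = 0.078). Gata3 fell by 1.03 on the log2 scale (adjusted p = 0.026, and -1.700, adjusted p = 4.1e-06, with tumours 4 to 6). That call was lost in a fit of the 10 libraries and without any one of tumours 4, 5 or 6 or skin 1, 2 or 3.

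Signalling lists were mixed. Of 15 Notch genes, 3 were raised (Hes1, Dll4 and Nrarp) and 2 lowered (Notch2 and Rbpj), with 0 to 2 lowered when 1 library was left out and 5 with tumours 4 to 6. Hes1 rose by 1.39 ± 0.23 (adjusted p = 1.1e-04), and Notch1, Notch3 and Jag1 were not called (-0.61, 0.17 and -0.19). Of 21 Wnt genes, 6 were raised and 2 lowered (5 and 7 with tumours 4 to 6), shares near those of all protein-coding genes (29.9% raised and 9.17% lowered, and 26.8% lowered with tumours 4 to 6). Leaving out 1 library gave 0 lowered without skin 2 and up to 5 without tumour 3. Wnt5a rose by 1.24 ± 0.33 (adjusted p = 0.0075), and the feedback gene Axin2 fell by 1.02 on the log2 scale (adjusted p = 0.026, and 0.0546 to 0.0741 without tumour 4, tumour 5, skin 1 or skin 2). The secreted antagonists Sfrp2 and Wif1 were not called (1.68 ± 0.90 and -1.12 ± 1.298). Of 16 circadian clock genes, 4 were raised and 1 lowered (4 and 4 with tumours 4 to 6, and 0 to 3 lowered with 1 library left out, the 3 without tumour 3), with Arntl, Per2 and Dbp not called at -0.07, -0.44 and -0.58.

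HOX genes, whose levels in skin follow body position, spread widely among the tumours. Of 32 tested, 1 was raised and 5 lowered with all 6 tumours, 21 were lowered with tumours 4 to 6, and 20 without tumour 1 alone. Leaving out any other library gave 2 to 5 lowered. Among all protein-coding genes 29.9% were raised and 9.17% lowered with all 6 tumours, and 26.8% were lowered with tumours 4 to 6. Hoxc8 was at 43.8, 0, 0.0153, 0.536, 0.187 and 0 CPM in tumours 1 to 6 and 18.7, 17.9, 36.7 and 44.01 CPM in skin, so tumour 1 matched the highest skin samples and the other 5 tumours were near 0. Hoxa9 was at 35.5 CPM in tumour 1, 0 to 0.0234 CPM in the others and 0.145, 0.978, 0.141 and 0.273 CPM in skin. Its log2 fold change was 3.94 ± 2.36 with all 6 tumours and -5.32 without tumour 1. Hoxb8 showed the skin pattern in tumour 1 more weakly, at 3.64 CPM against 0 to 0.0794 in the other tumours and 14.5, 6.85, 6.68 and 2.24 in skin. The labels give no body site. The study reports that Ivl mice had lesions on the back, paws, ears and lips, and that K5 and K14 mice had tumours on the back only. Tumour 1 is also among the Ivl tumours that stood apart from tumours 4 to 6. Averaged with K5 tumour 1, those that stood apart came close to the remaining libraries for most genes checked, as given above. The parts of body site and of the study's batch adjustment in these values were not tested.

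Genes of hair follicles, glands, fat, muscle, pigment and nerve gave more lowered calls with tumours 4 to 6 than with all 6 tumours, as protein-coding genes in general did (26.8% against 9.17%). The summed muscle markers Acta1, Ckm, Myh4 and Ttn were at 2395 to 11053 CPM in skin, 5247 in tumour 2 and 1787 in tumour 3, and 0.569 to 217 CPM in the other 4 tumours. None of 18 muscle genes was called with all 6 tumours and 8 were lowered with tumours 4 to 6. Ttn was at 0.415, 2269, 1040.0, 1.37, 1.34 and 23.4 CPM in tumours 1 to 6 and 1825, 6174, 1158 and 731 CPM in skin (-2.15 ± 1.804, adjusted p = 0.33, and -8.14, adjusted p = 0.011, with tumours 4 to 6). Sebaceous markers followed the same split, with Scd1 at 131, 1653, 2246, 184, 105 and 291 CPM in the tumours and 1154, 2943, 3460.3 and 2508 CPM in skin. None of 13 sebaceous gland genes was called with all 6 tumours and 5 were lowered with tumours 4 to 6. Hair keratin and shaft genes gave none raised or lowered of 23 (2 lowered with tumours 4 to 6), and Krt71 ranged from 0.507 to 786 CPM in the tumours and from 0.922 to 1231 in skin.

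Hair follicle stem cell and Hedgehog genes were lowered in 3 of 16 cases with all 6 tumours, in 12 with tumours 4 to 6 and in 8 without tumour 3 alone, with none raised. Sox9 was at 8.74, 49.8, 86.4, 19.1, 11.99 and 22.5 CPM in tumours 1 to 6 and 71.4, 82.8, 65.4 and 107 CPM in skin. It fell by 1.31 on the log2 scale (adjusted p = 0.037), a call lost without any one of tumours 4, 5 or 6 or skin 1, 2 or 4 (adjusted p = 0.0542 to 0.0892). Lgr5, Lgr6 and Gli1 were not called with all 6 tumours (-1.69, -1.82 and -1.46) and were lowered with tumours 4 to 6 (-3.83, -3.55 and -2.71, adjusted p = 0.017, 4.8e-04 and 0.023). Adipocyte genes gave 1 raised and none lowered of 15, and 2 and 8 with tumours 4 to 6. Fabp4, a fatty acid binding protein also made by capillaries, was at 1598, 121, 155, 1684, 3474 and 63.7 CPM in the tumours and 57.3, 66.6, 409 and 347 CPM in skin, while Plin1, of the fat droplet surface, was at 17.1, 1.86, 17.7, 2.004, 0 and 2.35 CPM and 28.5, 40.6, 65.5 and 61.8 CPM. Melanocyte, Schwann and Merkel cell genes gave 2 lowered of 11 (Pmel and Mitf), 0 when tumour 4, 5, 6 or skin 1 was left out, 6 without tumour 2 and 7 with tumours 4 to 6. Dct, a melanin enzyme, was at 0.492 to 20.6 CPM in the tumours and 117, 9.93, 30.6 and 12.7 CPM in skin (-2.82 ± 1.09, adjusted p = 0.053). Of 15 endothelial genes 1 was raised (Emcn, 1.54 ± 0.58, adjusted p = 0.048). That call was lost with tumours 4 to 6 (adjusted p = 0.057), without any one of tumours 3 to 6 or skin 1 or 2, and with either other scaling. Pecam1 was at 24.9 to 109 CPM in the tumours and 9.48, 18.2, 82.8 and 125 CPM in skin. How far these cell types account for the lowered genes of tumours 4 to 6 was not tested.

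**Figure D5:**
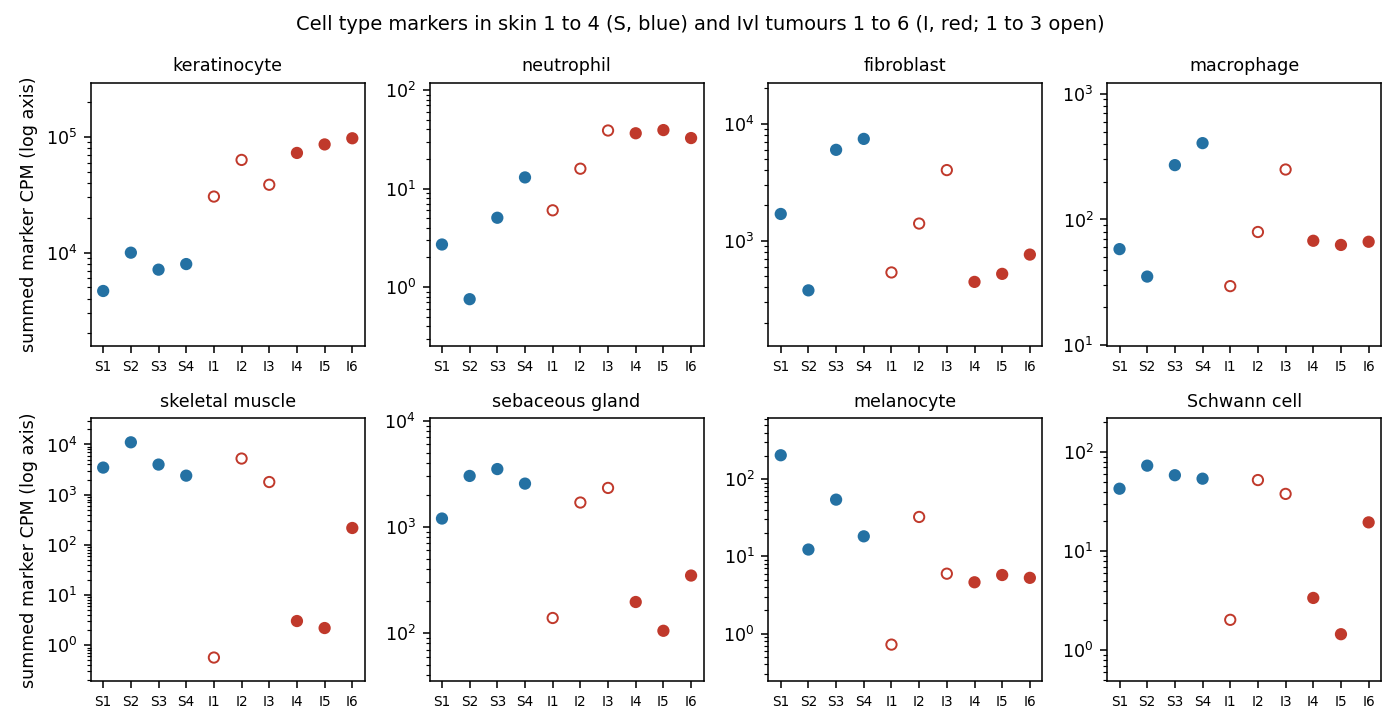
Summed CPM of fixed marker genes of 8 cell types (log axis) in normal skin 1 to 4 (S, blue) and Ivl tumours 1 to 6 (I, red; 1 to 3 open). Keratinocyte markers are 30488 to 97289 CPM in the tumours and 4657 to 9980.1 in skin, and muscle and sebaceous markers are at or near skin levels in tumours 2 and 3.

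Raised protein-coding genes with the smallest adjusted p included large changes, such as Krt6b (6.76) and Ivl (4.72), beside genes that changed by moderate amounts. Nuak2, a stress-activated kinase, was at 44.01 to 76.5 CPM in the tumours and 15.9, 17.95, 17.8 and 20.8 CPM in skin and rose by 1.72 ± 0.17 (adjusted p = 3.0e-05). Hras, a RAS gene, was at 182, 131, 138, 189, 203 and 201 CPM in tumours 1 to 6 and 66.3, 78.5, 79.01 and 63.7 CPM in skin and rose by 1.28 ± 0.14 (adjusted p = 3.0e-05). Ccdc124, Bod1, Pqlc1, S100a14, Phf5a and Tars rose by 1.26 to 1.73, and Urah by 3.76 ± 0.40. Among raised genes without overlap and with a mean of at least 10 CPM in the tumours, the largest values went to genes with few or no skin reads. Besides Lce3b, Sprr3, Sprr2b, Defb4 and Defb3, these were Gm5416, a stefin-like gene (at least 1803-fold), Bpifa5 (at least 925-fold), the chitinase-like Chil4 (at least 565-fold) and Nmu, which encodes the neuropeptide neuromedin U (at least 430.4-fold). Nmu was at 0.353, 17.2, 6.97, 9.05, 11.99 and 38.8 CPM in tumours 1 to 6. Over all protein-coding genes, 3 were at 3 counts or fewer in every skin library and at 1 CPM or more in every tumour: Defb3, Gm5416 and Sprr3.

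Genes lowered without overlap and at the smallest adjusted p changed by less. Lrrc58 was at 75.3, 93.7, 86.3, 61.3, 59.3 and 54.9 CPM in tumours 1 to 6 and 155, 126, 163 and 153 CPM in skin, a log2 fold change of -1.06 ± 0.16 (adjusted p = 6.9e-05). Cul7, a ubiquitin ligase scaffold, was at 19.7, 15.1, 20.9, 11.1, 13.9 and 11.2 CPM in the tumours and 27.8, 26.7, 34.8 and 37.1 CPM in skin (-1.04 ± 0.22, adjusted p = 0.0015). Zmym4, Gpc4, Sh3tc2, Mob3b, Dgkd and Sh3d21 had log2 fold changes of -2.22 to -0.60. Mup22, a major urinary protein gene, had no reads in any tumour and 61.6, 69.3, 189 and 63.5 CPM in skin, so it was at least 1749-fold lower. Major urinary protein genes are close copies, so the read count of any 1 is uncertain. The other largest falls were ranked only among genes without overlap, with a mean of at least 10 CPM in skin and lowered again with tumours 4 to 6. There they were, apart from Flg2, 8 histone genes of the Hist1 cluster, whose mRNAs normally lack a poly(A) tail. Over all protein-coding genes, 294 were lowered by more than 3 on the log2 scale and 91 by more than 5. Hist1h3c was at 4.83, 4.89, 0.842, 2.28, 3.02 and 2.81 CPM in the tumours and 49.05, 17.1, 29.7 and 13.8 CPM in skin (-3.14 ± 0.80, adjusted p = 0.0060). Of 59 replication-dependent histone genes 25 (42.4%) were lowered, and 51 with tumours 4 to 6, while Pcna and Mcm5 of the replication machinery rose.

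Genes of other biotypes leaned the other way. Of 14054 tested, 1148 (8.17%) were raised and 2950 (21%) lowered, and with tumours 4 to 6, 1327 (9.47%) and 5549 (39.6%) of 14008. The share lowered was 46.7% for miscellaneous RNA, 37.6% for small nuclear RNA, 36.9% for microRNA loci, 30.4% for unconfirmed transcripts, 28.3% for small nucleolar RNA, 22.1% for antisense RNA and 13.3% for long non-coding RNA. Processed pseudogenes were raised in 16.5% and lowered in 15.4% of 3648 cases. Rnu1a1, a U1 small nuclear RNA that pairs with the start of introns and carries no poly(A) tail, was at 22.4, 32.7, 15.01 and 17.9 CPM in skin and at 3 counts or fewer in every tumour, at least 401-fold lower. Its transcript (GENCODE, GRCm38, chr11:87422867-87423030, plus strand) is shown since a tail-selected library should hold little of it.
Rnu1a1: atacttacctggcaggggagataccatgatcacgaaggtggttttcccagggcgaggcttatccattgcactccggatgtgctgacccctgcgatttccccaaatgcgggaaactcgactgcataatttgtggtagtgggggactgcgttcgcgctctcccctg
Other U1 copies are near-identical, so the read count of any 1 copy is uncertain. Gm24305, also a small nuclear RNA, and Gm18422, listed as a transcribed pseudogene, were at least 47.2-fold and 35.4-fold lower. The 3 raised genes with the smallest adjusted p were the processed pseudogenes Gm12231 (2.11 ± 0.26) and Gm14681 (1.55 ± 0.19) and the antisense gene Gm15564 (3.24 ± 0.41). Which strand was counted is not given in the sources used here, so antisense values may hold reads of the partner gene. The difference in RNA without tails moved with the groups, and its part in these calls was not tested.

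A direct test against tumours of other origins called far fewer genes. The study reports that Ivl tumours also arose later and grew more slowly than K5 and K14 tumours. Lesions of Ivl mice lay at several body sites, and tumours of K5 and K14 mice on the back. Cre was induced with tamoxifen in Ivl mice and with 4-hydroxytamoxifen in K5 and K14 mice. These differences cannot be told apart from origin here. Against the 9 K5 and K14 tumours, 554 of 32031 genes (1.73%) were higher and 182 (0.568%) lower in the Ivl tumours. The number called was unstable, at 144 with Ivl tumours 1 to 3 and K5 tumour 1 all left out and 95 without K5 tumour 1 alone. In the epidermal differentiation complex none of 74 genes was higher and 1, Ivl, was lower, at -1.55 ± 0.36 (adjusted p = 0.036, and -0.86, adjusted p = 0.24, with tumours 4 to 6). None of the 4 wound keratins was called, with Krt6b at -0.51 ± 0.50 and Krt16 at -0.25 ± 0.44. Krt13 and Krt4 did differ. Krt13 was at 0.0318 to 17.8 CPM in the K5 and K14 tumours (median 15.4), below every Ivl tumour, a log2 difference of 6.54 ± 0.88 (adjusted p = 0.0024, and 2.6e-05 with tumours 4 to 6). Krt4 was 4.94 ± 0.74 higher (adjusted p = 0.0046).

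Sox2 also separated the origins, at 0.127 to 1.45 CPM in K5 and K14 tumours against 2.84 to 32.05 in Ivl tumours, a log2 difference of 4.24 ± 0.61 (adjusted p = 0.0029, and 0.0011 with tumours 4 to 6). The smallest adjusted p among genes higher in Ivl tumours went to Cldn8, a tight junction protein (4.28 ± 0.45, adjusted p = 5.9e-04), and Gclm, a subunit of the enzyme that starts glutathione synthesis (2.01 ± 0.25, adjusted p = 0.0013). Gclm was at 100.3, 74.8, 110.1, 232, 165 and 276 CPM in Ivl tumours 1 to 6, 19.2 to 57.5 in K5 and K14 tumours and 64.8, 32.5, 44.9 and 34.7 in skin. Cldn8, in contrast, was at 12.7 to 72.98 CPM in Ivl tumours, 23.5, 14.5, 11.4 and 11.6 CPM in skin and 0.302 to 5.99 CPM in the other tumours, so the Ivl tumours stood near skin. Thsd4, Slc9a3 and Grik3 shared that pattern, with no call against skin (-0.71, -0.09 and 1.38) and higher values than in K5 and K14 tumours by 3.09, 2.74 and 4.63. Of 17 NRF2 and glutathione genes 4 were higher (Gclc, Gclm, Gsta3 and Gstm1), and of 16 clock genes 6 were higher and 1 lower. Bpifa5 was higher by 9.13 ± 1.55 (adjusted p = 0.019), and Il1rn by 1.42 ± 0.28 (adjusted p = 0.021).

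Among the genes lower in Ivl than in K5 and K14 tumours, Col12a1, a fibril-associated collagen, was at 209, 310.3, 519, 381, 366 and 271 CPM in Ivl tumours 1 to 6, 735 to 1658 CPM in the other tumours and 138, 34.5, 112 and 104 CPM in skin. It was raised against skin (1.82 ± 0.31, adjusted p = 1.6e-04) and lower than in the other tumours (-1.801 ± 0.25, adjusted p = 0.0024). Bmp1, a procollagen protease, had the same order (0.64 ± 0.16 against skin and -1.14 ± 0.13 against the other tumours, adjusted p = 0.0048 and 0.0013), although its call against skin was lost in a fit of the 10 libraries (adjusted p = 0.0632). Pgs1 and Syngr2 were lower by 0.95 and 0.85 on the log2 scale (adjusted p = 0.0016 and 0.0024), and the call of Syngr2 against skin was lost in the 10-library fit. Itga5 was lower by 1.22 (adjusted p = 0.026) and did not pass with Ivl tumours 4 to 6 alone (adjusted p = 0.14).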

How the data were processed

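Bulk RNA-seq was made from 6 Ivl, 5 K5 and 4 K14 tumours and 4 normal skin samples, grouped by their titles and genotypes. Per the labels and the study's methods, the authors checked reads with FastQC 0.11.8, trimmed them with Trim Galore, aligned them to GRCm38 (Ensembl release 100) with HISAT2 2.1.0 and counted them with featureCounts (Subread 1.6.3). The deposited values are estimated counts: whole numbers after the authors' ComBat-seq adjustment for 2 sequencing batches, not raw counts. The test designed for counts was kept on them, and its p-values do not allow for that adjustment. How far the adjustment moved levels or spread was not tested. No library was dropped or imputed in the main test.

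Genes with 5 counts in at least 1 library were tested with edgeR 4.0.16 (R 4.3.3): TMM scaling, quasi-likelihood F test, 4 groups, all 19 libraries, Benjamini-Hochberg adjustment over 32031 genes, called at adjusted p under 0.05. Fold changes used edgeR's default prior count, and log2 CPM values used a prior count of 2. Floors took 3 counts per library and cover counting error only. GENCODE M21 supplied biotypes and positions, and RefSeq the promoters. Alternatives used DESeq2 1.42.0 and the settings given in the closing section. The scripts were tested on simulated data.

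The members and lists were chosen with earlier results of these data known. Named genes were marked members of the 41 lists and, by rule, protein-coding genes called in the same direction with and without tumours 1 to 3, without overlap between groups and with a mean of at least 10 CPM in the higher group: the 10 per direction with the smallest adjusted p and the 10 with the largest fold change. The rule added 3 per direction of other biotypes and 5 per direction against K5 and K14 tumours. Other list members named beside them were chosen after their values were seen. Some genes that the rule or the lists select are not reported here.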

Additional observations from a re-analysis of the deposited data

Results flagged for a closer look

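In 33 of 364 gene and group combinations 1 sample stood far from the others of its group by Dixon's test on the log scale, where chance gives about 1 in 20. The values of these samples, in CPM, are given by library. In tumour 1 they were Krt5 (2805), Krt14 (5639), Cxcl2 (0.369), Csf3r (1.94), Mmp10 (0.3996), Mmp13 (1.91), Lep (26.5), Cxcl10 (0.323), Hoxa9 (35.5), Hoxb8 (3.64) and Nmu (0.353). In tumour 2 they were Gm14681 (28.7). In tumour 3 they were Krt10 (3163), Sprr1b (74.4), Lor (293), Lce3b (0.352), Klk6 (68.5), Cd79a (0.322), Mcm5 (52.5), Sqle (125), Sprr2b (0.429), Gpc4 (33.6) and Hist1h3f (7.32). In tumour 5 they were Plin1 (0). In skin sample 1 they were Spry2 (17.3), Egfr (211) and Lce1a1 (35.2). In skin sample 2 they were Dusp6 (24.5), Krt71 (0.922) and Cdkn2a (0). In skin sample 3 they were Snai2 (14.3) and Mup22 (189). In skin sample 4 they were Krt6a (860.0).

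A further 23 named genes differed between Ivl and the K5 and K14 tumours by edgeR's test of that difference (adjusted p under 0.05). Log2 differences were positive, higher in Ivl tumours, for Krt4 (4.94), Krt13 (6.54), Il1rn (1.42), Sox2 (4.24), Per2 (1.31), Bpifa5 (9.13), Cldn8 (4.28), Gclm (2.01), Thsd4 (3.09), Slc9a3 (2.74), Grik3 (4.63) and Lrrc58 (0.53). They were negative for Dusp6 (-0.97), Ivl (-1.55), Itga5 (-1.22), Slc2a1 (-1.09), Pqlc1 (-0.65), Urah (-1.15), Cul7 (-0.89), Bmp1 (-1.14), Pgs1 (-0.95), Col12a1 (-1.80) and Syngr2 (-0.85). The fitted value of Bpifa5 rests on a low level in the other tumours and depends on the prior count.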

How the results depend on the processing

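Leaving out 1 Ivl or skin library gave 8839 to 14456 genes changed, 5700 to 8916 of them protein-coding and 2888 to 5540 of other biotypes. Tumours 4 to 6 alone gave 17542, 10666 and 6876. The replicate number does not pair the samples (the correlation of same-numbered deviations was 0.010 to 0.102 over 4 pairs), and as a replicate block it gave 790, 582 and 208. An adjusted p under 1e-05 with a log2 fold change over 1.5 left 2, 0 and 2. For other biotypes the covariate for tumours 1 to 3 and K5 tumour 1 gave 6286 and filterByExpr 2642. Against K5 and K14 tumours the 736 genes became 144 without Ivl tumours 1 to 3 and K5 tumour 1, 400 with the covariate, 47 with the replicate block, 2656 with DESeq2, 0 at the strict threshold and 95 (without K5 tumour 1 alone) to 1395 with 1 tumour left out. Of 125 named genes called, none reversed and 66 lost the call somewhere, 66 of them under the block; of 68 not called, 32 were called somewhere and 16 changed sign. Log2 fold changes of these 16 turned as follows. With protein-coding TMM, values were Spry2 -0.0488, Txnrd1 -0.1004, Isg15 -0.0146, Notch3 -0.0223 and Pgs1 -0.04100. With filterByExpr, values were Spry2 -0.000107 and Txnrd1 -0.0465. With the replicate block, values were Cpa3 0.0445, Pecam1 0.4698, Cdh5 0.141, Lyve1 0.153 and Hoxa9 -3.02. With the set as covariate, values were Elovl3 0.00274, Isg15 -0.0103, Hoxa9 -4.01, Slc9a3 0.303 and Pgs1 -0.0545. With size factors, values were Txnrd1 -0.0294. With DESeq2, values were Txnrd1 -0.0294. With tumours 4 to 6 alone, values were Isg15 -0.0557, Hoxa9 -4.59, Slc9a3 0.106 and Pgs1 -0.0704. Leave-one-out ranges were -0.0505 to 0.235 for Spry2, -1.17 to 0.0659 for C1qa, -2.85 to 0.00449 for Krt35, -0.717 to 0.03704 for Elovl3, -0.4000 to 0.624 for Pecam1, -0.712 to 0.183 for Cdh5, -1.42 to 0.166 for Lyve1, -0.0498 to 0.292 for Txnrd1, -0.0411 to 0.341 for Isg15, -0.346 to 0.0901 for Jag1, -5.32 to 4.99 for Hoxa9, -0.205 to 0.1899 for Arntl and -0.312 to 0.3195 for Slc9a3. The causes were not tested.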
